A study of Rattus norvegicus with 6 samples.

Results

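Branched-chain amino acid breakdown was followed through 10 genes of the deposited liver expression table, each taken as the row whose gene name equals Bcat1, Bcat2, Bckdha, Bckdhb, Dbt, Bckdk, Ppm1k, Ivd, Mccc1 or Mccc2, out of 32930 genes listed. Leucine, isoleucine and valine lose their amino group to branched-chain transaminases, and the resulting 2-oxoacids are then oxidised irreversibly in mitochondria by the branched-chain 2-oxoacid dehydrogenase complex. A dedicated kinase switches this complex off by phosphorylation and a dedicated phosphatase switches it back on. The liver is known for low transaminase and high dehydrogenase activity, so that it mainly oxidises 2-oxoacids released by other tissues.

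The 6 libraries were made from liver RNA of animals kept on a high-fat diet. The HFD group (n = 3) was given 0.5% CMC-Na, the vehicle sodium carboxymethyl cellulose, and the HTG group (n = 3) was given HTG, a herbal medicine formula called the Huazhuo Tiaozhi granule, with an intervention of 12 weeks in both by the series design, while the study's methods describe, for its rats, dosing that began only after some weeks of the diet. The treatment label of the HTG samples spells the agent HCG, whereas their titles and the study design spell it HTG. The labels name rats and give no strain, age, sex or dose, the study's sequencing paragraph names C57BL/6 J mice, and the gene rows carry mouse Ensembl identifiers, so that the values are reported as those of mouse gene rows and the species of the animals is uncertain. Libraries on a normal diet were not analysed here. The question of the comparison was how liver gene expression under the high-fat diet differed with HTG.

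Each gene had an estimated count and an FPKM value, fragments per kilobase of transcript scaled by the fragments of the library. Estimated counts added up to 65353298, 70910444 and 69907057 in HFD libraries 1 to 3 and to 78549295, 90563477 and 50648778 in HTG libraries 1 to 3, so HTG library 3 was the shallowest. Low counts peaked at 4, with 6450 such values over the libraries, but 5104 values of 1 and 4229 of 2 also occurred, so a worth of about 4 counts per fragment is an estimate from the values alone. On that estimate 3 fragments, or 12 counts, are the limit that an empty gene allows, and 3 counts if a count is a fragment, both for counting error only. CPM below are counts scaled to a common library total with edgeR's TMM factors. Messenger RNAs of the mitochondrial genome made up 6.31%, 4.82% and 5.18% of all counts in HFD libraries 1 to 3 and 9.12%, 14.9% and 13.0% in HTG libraries 1 to 3, without overlap, and their part in the results below was not tested. HTG library 1 stood nearest to the HFD group, since over genes, which are not independent replicates, its log2 CPM correlated with HFD library 1 at r = 0.959, against 0.942 for HTG library 2 and 0.937 for HTG library 3. With HTG libraries 2 and 3 it correlated at 0.9587 and 0.948, no higher than with HFD library 1 (0.9592).

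None of the 10 genes differed between the groups at an adjusted p under 0.05 after Benjamini-Hochberg adjustment of edgeR's quasi-likelihood test, and 2 of the 18455 genes tested (0.0108%) did. At an unadjusted p under 0.05, 1 of the 10, the mitochondrial transaminase gene Bcat2, was higher in the HTG group, where 12.3% of all genes tested were. At the same threshold 1 of the 10, the cytosolic transaminase gene Bcat1, was lower, where 12.4% of all genes tested were. These shares lie near those of the whole table. All 10 passed the filter on low counts. The fitted log2 fold changes, HTG minus HFD, had a median of -0.092 over the 10 genes and 0.025 over all genes tested, and 5 of the 10 were above 0. With a library left out, the median of the 10 lay between -0.24 and -0.0055. It was 0.030 over the 9 genes that had at least 10 counts in every library. The CPM of the groups did not overlap for 2 of the 10 genes, Bcat2 and Bckdhb, both higher with HTG, against 16.5% of the genes tested, and for 0 of the 10 in the lower direction, against 15.5%. DESeq2 called 2 of the 10, Bcat1 and Bcat2, at an adjusted p under 0.05, where it called 14.7% of its genes with an adjusted p, and limma on log2(FPKM + 0.1) called 0 of the 9 it tested, Bcat1 being left out, and 8.03% of its 10930 genes. Without HTG library 1, edgeR called 653 genes of the whole table and still 0 of the 10.

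Levels between genes were compared by FPKM, which allows for transcript length. The genes for the decarboxylase subunits stood at the top, since Bckdha ranked highest and Bckdhb next in each of the 6 libraries, with means over the libraries of 103 and 59.4 FPKM. Ivd followed in every library with a mean of 30.6 FPKM. Mccc2, Bcat2, Dbt and Ppm1k formed a middle group with mean levels of 13.9, 11.4, 10.4 and 8.21 FPKM, an order that held in neither group, since the means were 15.8, 8.44, 12.0 and 7.33 FPKM with HFD and 11.95, 14.4, 8.70 and 9.09 FPKM with HTG. Bckdk and Mccc1 came next at 3.30 and 2.80 FPKM, with overlapping ranges, although Mccc1 was above Ppm1k in HFD library 3. Bcat1 was the lowest of the 10 in each library, with a mean of 0.067 FPKM. Bckdha had a higher mean FPKM than 97.7% of the genes tested and Bckdhb than 96.2%, whereas Bcat1 was above 5.36%. The 10 genes together summed to 272, 233 and 240 FPKM in HFD libraries 1 to 3 and to 258, 255 and 198 FPKM in HTG libraries 1 to 3, so that the groups overlapped.

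**Figure D1:**
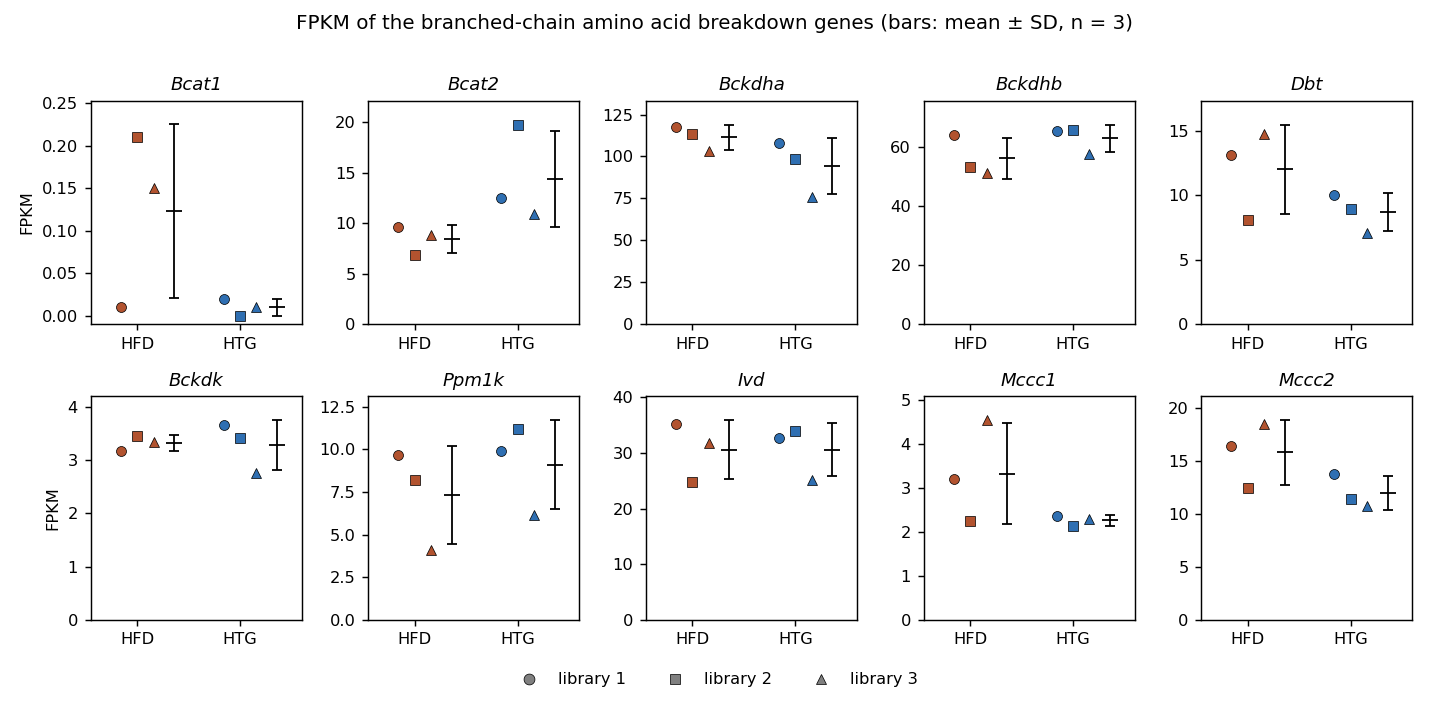
FPKM (linear axes) of the 10 breakdown genes in the 3 HFD and the 3 HTG libraries, with a point for each library, its shape giving the library number, and a bar at the mean ± SD (n = 3). Bcat2 lies between 6.88 and 9.59 in the HFD group and between 10.9 and 19.8 in the HTG group, without overlap, while the groups overlap for the other 9 genes.

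The transaminase genes showed the largest fitted differences of the 10. Bcat2 (ENSMUSG00000030826, chromosome 7, 45219577 to 45239135) encodes the mitochondrial enzyme, which in rodents is found mainly outside the hepatocyte. It had 9.59, 6.88 and 8.84 FPKM in HFD libraries 1 to 3 and 12.5, 19.8 and 10.9 FPKM in HTG libraries 1 to 3. The estimated counts behind these values were 2541, 1983 and 2495 with HFD and 4070, 7455 and 2288 with HTG, the last from the shallowest library. Each HTG library was above each HFD library in both FPKM and CPM, and HTG library 2 was the highest. The group levels were 33.9 ± 3.85 CPM with HFD and 59.1 ± 14.9 CPM with HTG (SD, n = 3 each). The log2 fold change was 0.80 (95% interval 0.31 to 1.29), with an unadjusted p of 0.00516 and an adjusted p of 0.0777 in edgeR's quasi-likelihood test. In DESeq2 the adjusted p was 0.0247, the lowest of 15 alternative fits, whose adjusted p reached 0.228. Since the libraries are of bulk liver, more or fewer cells of a type and more or less RNA per cell cannot be told apart, for this gene and those that follow.

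Bcat2 shares 5175 bases of its span with the lncRNA gene 0610005C13Rik on the opposite strand. That gene had 221, 207 and 140 CPM in HFD libraries 1 to 3 and 186, 200 and 142 CPM in HTG libraries 1 to 3, more than Bcat2 in every library. The groups overlapped for it, so the order of the Bcat2 libraries was not repeated in its neighbour. No source says if strand entered the counting, so reads of the shared bases could have been credited to either gene.

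Bcat1 (ENSMUSG00000030268, chromosome 6, 144939561 to 145021910) encodes the cytosolic transaminase, which normal adult hepatocytes hardly express. Its estimated counts were 8, 144 and 101 in HFD libraries 1 to 3 and 14, 0 and 3 in HTG libraries 1 to 3. HFD library 1, HTG library 2 and HTG library 3 were under the estimated limit of 12 counts for an empty gene and HTG library 1 was just above it, whereas at a limit of 3 counts only HTG libraries 2 and 3 were at or under it. HFD libraries 2 and 3 were far above either limit. The groups overlapped through HFD library 1. The FPKM values were 0.010, 0.21 and 0.15 with HFD and 0.020, 0.00 and 0.010 with HTG. The log2 fold change was -3.91 (95% interval -6.88 to -0.93), a fitted value that depends on how counts near 0 are treated, with an unadjusted p of 0.0162 and an adjusted p of 0.117 in edgeR's quasi-likelihood test. Without HFD library 2 its unadjusted p was 0.0603, and without HTG library 1 its fitted log2 fold change was -5.59. The adjusted p was 0.00453 in DESeq2 and went up to 0.309 among 11 alternative fits.

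The dehydrogenase complex begins with a decarboxylase whose alpha and beta subunits are encoded by Bckdha and Bckdhb. Bckdha (ENSMUSG00000060376, chromosome 7, 25329371 to 25358406) had 118, 114 and 103 FPKM in HFD libraries 1 to 3 and 108, 98.7 and 75.8 FPKM in HTG libraries 1 to 3. The groups overlapped through HTG library 1, and HTG library 3 was the lowest. Its log2 fold change was -0.20 (95% interval -0.65 to 0.24, adjusted p = 0.550 in edgeR's quasi-likelihood test), and it was -0.36 without HTG library 1 and -0.10 without HTG library 3. Bckdhb (ENSMUSG00000032263, chromosome 9, 83807198 to 84006293) had 63.8, 53.0 and 51.1 FPKM in HFD libraries 1 to 3 and 65.1, 65.8 and 57.5 FPKM in HTG libraries 1 to 3. HFD library 1 lay inside the HTG range in FPKM, whereas in CPM the HFD libraries, at 115, 106 and 92.9, were all below the HTG libraries, at 126, 117 and 119. The log2 fold change of Bckdhb was 0.21 (95% interval -0.18 to 0.60, adjusted p = 0.477 in edgeR's quasi-likelihood test), and it was 0.13 without HFD library 3 and 0.14 without HTG library 1.

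The subunits of this decarboxylase are built into the complex together, and their ratio was taken within each library. Bckdha over Bckdhb in FPKM was 1.84, 2.14 and 2.02 in HFD libraries 1 to 3 and 1.66, 1.501 and 1.32 in HTG libraries 1 to 3. Each HTG library was below each HFD library, and the alpha subunit gene stayed above the beta subunit gene throughout. The log2 ratio was 0.998 ± 0.11 in the HFD group and 0.57 ± 0.17 in the HTG group (SD, n = 3 each), a difference of -0.43 with p = 0.1 in a two-sided exact permutation test, the smallest p that 3 libraries against 3 allow. Leaving out any library gave a difference between -0.51 and -0.34, and without HFD library 2 the p of the permutation test was 0.2. Bckdha shares 5155 bases of its span with B3gnt8, a glycosyltransferase gene on the opposite strand, which had 27.2, 27.7 and 14.7 CPM in HFD libraries 1 to 3 and 43.7, 39.9 and 31.9 CPM in HTG libraries 1 to 3. B3gnt8 was thus below Bckdha in every library and was higher in each HTG library than in each HFD library, the opposite order to that of the ratio, and its part in the Bckdha counts was not tested. The genes that overlap Bckdhb, Gm46124 and Gm29163, had means of 4 and 6.17 counts per library.

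**Figure D2:**
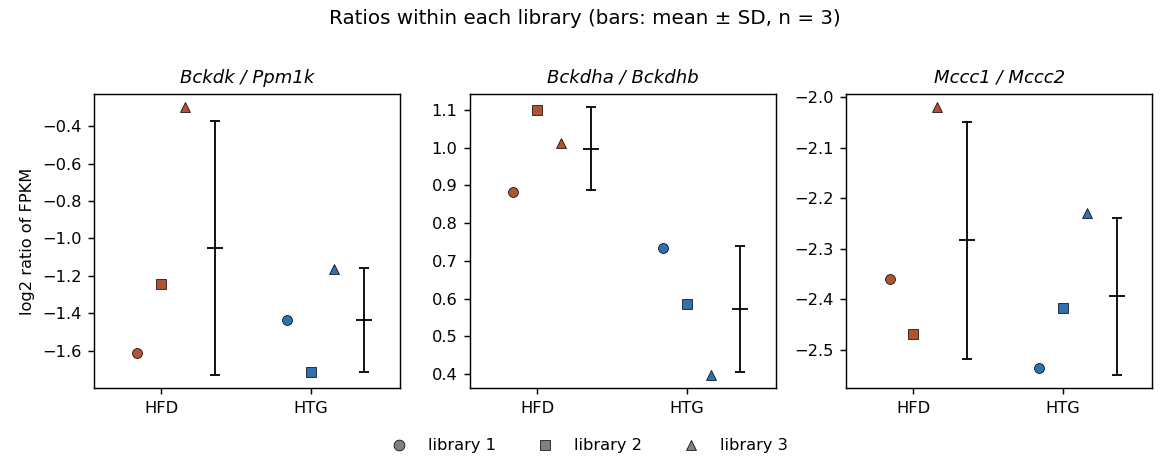
Log2 ratio of FPKM within each library for Bckdk over Ppm1k, Bckdha over Bckdhb and Mccc1 over Mccc2, with a point for each library and a bar at the mean ± SD (n = 3). The axes do not start at 0 and differ between panels, and the Bckdha to Bckdhb ratio is the panel whose groups do not overlap.

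Dbt (ENSMUSG00000000340, chromosome 3, 116306719 to 116343630) encodes the acyltransferase that forms the core of the complex. It had 13.1, 8.12 and 14.8 FPKM in HFD libraries 1 to 3 and 10.03, 8.96 and 7.11 FPKM in HTG libraries 1 to 3. HFD libraries 1 and 3 were above all HTG libraries, and HFD library 2 lay within the HTG range. For Dbt the log2 fold change was -0.41 (95% interval -0.92 to 0.092, adjusted p = 0.288 in edgeR's quasi-likelihood test). Without HFD library 2 it was -0.60, with an unadjusted p of 0.0156, and without HFD library 3 it was -0.26, with an unadjusted p of 0.297. The pseudogene Gm4596 inside its span, on the opposite strand, had a mean of 27.7 counts per library against 1281 to 3583 counts for Dbt.

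The activity of the complex is set by the kinase gene Bckdk and the phosphatase gene Ppm1k. Bckdk (ENSMUSG00000030802, chromosome 7, 127503254 to 127509393) had 3.17, 3.46 and 3.34 FPKM in HFD libraries 1 to 3 and 3.66, 3.42 and 2.76 FPKM in HTG libraries 1 to 3. It was the steadiest of the 10 genes but for Bckdhb, with a highest value 1.33 times its lowest, and the HTG libraries spread over and beyond the HFD range. Its log2 fold change was 0.022 (95% interval -0.38 to 0.42, adjusted p = 0.956 in edgeR's quasi-likelihood test), with a sign that turned in 7 of 15 alternative fits. Ppm1k (ENSMUSG00000037826, chromosome 6, 57483487 to 57512411) had 9.68, 8.19 and 4.11 FPKM in HFD libraries 1 to 3 and 9.89, 11.2 and 6.17 FPKM in HTG libraries 1 to 3. Library 3 was the lowest of each group, and the groups overlapped. The log2 fold change of Ppm1k was 0.33 (95% interval -0.42 to 1.08, adjusted p = 0.563 in edgeR's quasi-likelihood test), and it lay between 0.031, without HFD library 3, and 0.54, without HFD library 1, when a library was left out.

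Kinase and phosphatase transcripts were also set against each other. Bckdk over Ppm1k in FPKM was 0.327, 0.422 and 0.813 in HFD libraries 1 to 3 and 0.370, 0.305 and 0.447 in HTG libraries 1 to 3. Ppm1k was above Bckdk in every library, and HFD library 3 stood apart from the other 5. The difference of the log2 ratios, HTG minus HFD, was -0.38, with p = 0.5 in a two-sided exact permutation test, and it ranged from -0.66 without HFD library 1 to -0.0086 without HFD library 3.

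In the leucine arm, Ivd encodes isovaleryl-CoA dehydrogenase, the step after the complex, and Mccc1 and Mccc2 encode the biotin-carrying alpha subunit and the beta subunit of 3-methylcrotonyl-CoA carboxylase. Ivd (ENSMUSG00000027332, chromosome 2, 118692435 to 118713390) had 35.1, 24.8 and 31.9 FPKM in HFD libraries 1 to 3 and 32.8, 34.0 and 25.1 FPKM in HTG libraries 1 to 3. Its group means of 30.6 ± 5.27 FPKM (SD, n = 3) with HFD and 30.6 ± 4.81 FPKM (SD, n = 3) with HTG differed by less than the spread within either group. Ivd had a log2 fold change of 0.045 (95% interval -0.39 to 0.48, adjusted p = 0.910 in edgeR's quasi-likelihood test), and its sign turned in 2 of 15 alternative fits.

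Mccc1 (ENSMUSG00000027709, chromosome 3, 36013461 to 36054827) had 3.20, 2.25 and 4.54 FPKM in HFD libraries 1 to 3 and 2.37, 2.13 and 2.29 FPKM in HTG libraries 1 to 3. The HTG libraries lay close together, HFD library 3 was the highest of the 6, and HFD library 2 lay within the HTG range. Mccc2 (ENSMUSG00000021646, chromosome 13, 100085038 to 100152126) had 16.4, 12.5 and 18.4 FPKM in HFD libraries 1 to 3 and 13.8, 11.4 and 10.7 FPKM in HTG libraries 1 to 3. The order within the HFD group was the same as for Mccc1, and the groups overlapped through HFD library 2 again. The log2 fold changes were -0.50 for Mccc1 (95% interval -1.04 to 0.045, adjusted p = 0.238) and -0.35 for Mccc2 (95% interval -0.77 to 0.075, adjusted p = 0.285) in edgeR's quasi-likelihood test. For Mccc1 it was -0.68 without HFD library 2, with an unadjusted p of 0.0137, and -0.23 without HFD library 3, with an unadjusted p of 0.277. For Mccc2 it stayed between -0.51 and -0.24 with a library left out, with an unadjusted p of 0.0482 without HFD library 2 and 0.0383 without HTG library 1. Mccc1 over Mccc2 in FPKM was 0.195, 0.181 and 0.247 in HFD libraries 1 to 3 and 0.172, 0.187 and 0.213 in HTG libraries 1 to 3. The groups overlapped for this ratio, and its log2 difference was -0.11 with p = 0.6 in a two-sided exact permutation test. That difference ranged from -0.20 without HFD library 2 to 0.021 without HFD library 3. Of the genes that overlap Mccc1, Gm43080 on the same strand had a mean of 46.3 counts per library and Gm15952 on the opposite strand 51.2, against 1350 to 3599 counts for Mccc1.

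Several of the 10 genes had their highest or lowest value in the same library. HFD library 3 had the highest FPKM of Dbt, Mccc1 and Mccc2 and the lowest of Ppm1k and Bckdhb, and HFD library 2 had the lowest HFD value of Bcat2, Dbt, Ivd, Mccc1 and Mccc2. As a description over the 6 libraries, 3 from each group, log2 CPM correlated at r = 0.93 between Dbt and Mccc2, 0.91 between Mccc1 and Mccc2, 0.87 between Dbt and Mccc1 and 0.81 between Bckdhb and Ppm1k. These were the only 4 of the 45 pairs above 0.8, and the share of such pairs among all genes was not counted. Taken over deviations from the group means, the same 4 values were 0.89, 0.83, 0.78 and 0.83, and Bckdha with Bckdk and Dbt with Ivd were also above 0.8, both at 0.81, against 0.61 and 0.52 before. At the other end, r was -0.86 between Ppm1k and Mccc1, and -0.85 over deviations from the group means. Between Bcat1 and Bcat2 r was -0.89, and -0.73 over those deviations, and it rests on Bcat1 counts of at most 14 in 4 of the 6 libraries.

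The genes whose log2 CPM over the 6 libraries was most like that of Bcat1, among 14361 genes averaging 50 counts or more, were AK157302 (r = 0.996), Nacc1 (0.995), Mmgt1 (0.993), Insig2 (0.989) and Agps (0.989). Insig2, which encodes a sterol-regulated membrane protein of the endoplasmic reticulum, had 3491, 11968 and 8715 counts in HFD libraries 1 to 3 and 5370, 3140 and 2180 counts in HTG libraries 1 to 3. As for Bcat1, HFD libraries 2 and 3 were high and the other 4 low. Bcat1 had 8 counts in HFD library 1 and 14, 0 and 3 in HTG libraries 1 to 3, near the limit that an empty gene allows. Its r values rest on the order of those 4 near-empty libraries as well as on the 2 high ones. That order is within counting error, so the r values are less certain than their size. For Bckdk the nearest were Utp25 (r = 0.997), Dpcd (0.983), Fgf1 (0.977), Pxmp4 (0.9748) and Mfap1b (0.9697). These r values are the highest of a search over many genes and few libraries.

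Dld encodes the dihydrolipoamide dehydrogenase that the branched-chain complex shares with the pyruvate and 2-oxoglutarate dehydrogenase complexes. It had 20.9, 22.1 and 27.4 FPKM in HFD libraries 1 to 3 and 15.3, 11.3 and 11.5 FPKM in HTG libraries 1 to 3. The groups did not overlap. Of the genes for the components particular to the branched-chain complex, Bckdha and Dbt overlapped between the groups and Bckdhb was higher in CPM in each HTG library, and a difference between these genes and Dld in response was not tested. Dld had a log2 fold change of -0.84 (95% interval -1.30 to -0.37), with an unadjusted p of 0.00312 and an adjusted p of 0.0656 in edgeR's quasi-likelihood test.

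Of 14 genes for the pyruvate and 2-oxoglutarate complexes and their kinases and phosphatases, 0 had an adjusted p under 0.05, 10 were lower and 0 higher by an unadjusted p under 0.05 in edgeR's quasi-likelihood test, against 12.4% lower and 12.3% higher among all genes tested, and the median log2 fold change was -0.82. Set beside them, the 5 genes for the branched-chain complex proper and its kinase and phosphatase were between -0.41 and 0.33 on the same scale. Dlat, the acyltransferase of the pyruvate complex and the counterpart of Dbt, had 7.86 ± 2.17 FPKM in the HFD group and 4.18 ± 0.72 FPKM in the HTG group (SD, n = 3 each). Ogdh, which had the highest mean FPKM of the 14 over the libraries but was below Pdk2 in HFD library 1 and HTG libraries 2 and 3, had 34.3 ± 4.99 and 19.9 ± 2.61 FPKM, and Pdha1, the counterpart of Bckdha, had 23.0 ± 3.42 and 14.0 ± 1.86 FPKM in the HFD and HTG groups (SD, n = 3 each). The log2 fold changes were -0.87 (95% interval -1.38 to -0.35) for Dlat, -0.74 (-1.20 to -0.29) for Ogdh, -0.67 (-1.09 to -0.25) for Pdha1 and -1.26 (-2.04 to -0.48) for Pdpr, a regulatory subunit of the pyruvate dehydrogenase phosphatase.

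**Figure D3:**
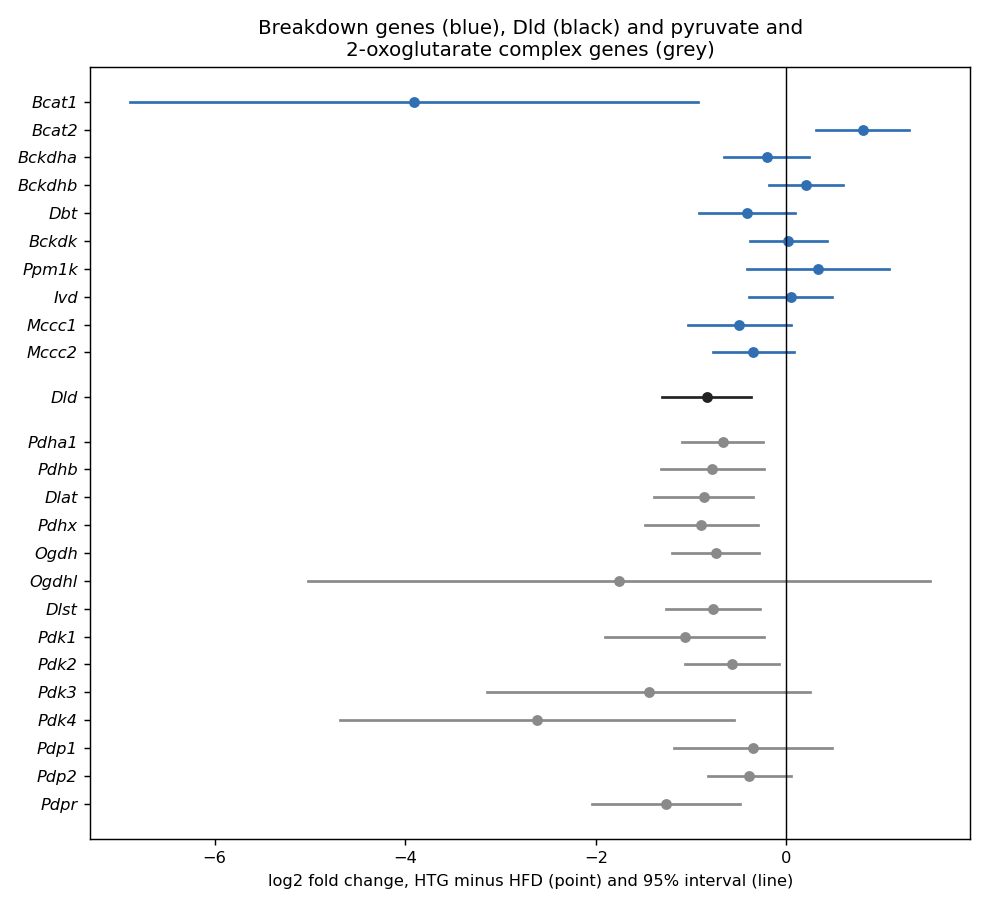
Log2 fold change, HTG minus HFD, with its 95% interval from edgeR's quasi-likelihood fit, for the 10 breakdown genes, Dld and the 14 genes of the pyruvate and 2-oxoglutarate complexes (3 libraries per group). The interval of 8 of the 10 breakdown genes crosses 0, Dld lies at -0.84, and all 14 genes at the bottom have fitted values under 0, with 4 intervals that cross it.

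The later steps carry the products of the complex to acetyl-CoA, acetoacetate and succinyl-CoA. A list of 17 genes held genes for these steps and also Dld, which is a component of the complex itself. Of the 17, 0 had an adjusted p under 0.05 in edgeR's quasi-likelihood test. By an unadjusted p under 0.05, 1 was higher and 7, Dld among them, were lower, against 12.3% and 12.4% of all genes tested. The median log2 fold change of the 17 was -0.16, and between -0.51 without HTG library 1 and -0.087 without HTG library 2 with a library left out. Pcca, the biotin-carrying subunit of propionyl-CoA carboxylase and so a relative of Mccc1, had 8.81 ± 2.75 FPKM in the HFD group and 4.79 ± 0.86 FPKM in the HTG group (SD, n = 3 each). Its log2 fold change was -0.82 (95% interval -1.37 to -0.27), and that of Hibch, the thioesterase of the valine arm, was -0.58 (-0.96 to -0.19). Mcee, the methylmalonyl-CoA epimerase, was the gene on the higher side, at 0.62 (0.21 to 1.03). Hsd17b10, a dehydrogenase of the isoleucine arm and with the highest mean of the 17 at 104 FPKM, was at -0.15 (-0.73 to 0.43). Pccb, which pairs with Pcca and was named after its values were seen, was at -1.01 (95% interval -1.70 to -0.32). A further list of biotin genes held the acetyl-CoA carboxylase genes Acaca and Acacb with Btd and Hlcs, which recycle and attach biotin. Of these 4, 0 passed an unadjusted p of 0.05, and the median of -0.59 rested on HFD library 3, without which it was 0.49. Acaca and Acacb had 16.5 and 34.2 FPKM in HFD library 3 and at most 5.68 and 7.62 FPKM in the other libraries, while Btd and Hlcs had log2 fold changes of -0.32 (95% interval -0.97 to 0.33) and -0.18 (-1.10 to 0.75).

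Branched-chain transaminases pass the amino group to 2-oxoglutarate, and the resulting glutamate is handled by further enzymes. Of 5 genes for glutamate-linked transfer, 4 were lower and 0 higher by an unadjusted p under 0.05, against 12.4% and 12.3% of all genes tested, 0 had an adjusted p under 0.05 in edgeR's quasi-likelihood test, and the median log2 fold change was -0.56. This differed in sign from the 0.80 of Bcat2. The values were -0.86 (95% interval -1.39 to -0.34) for Gpt2, -1.53 (-2.56 to -0.50) for Got1, -0.53 (-1.04 to -0.010) for Glud1, with the highest mean at 159 FPKM, and -0.56 (-1.11 to -0.011) for Got2.

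Uptake was covered by 6 transporter genes, of which 4 were lower and 0 higher by an unadjusted p under 0.05 and 0 had an adjusted p under 0.05 in edgeR's quasi-likelihood test. All genes tested gave 12.4% and 12.3% for the former, and the median log2 fold change of the 6 was -0.45. Slc25a44, the mitochondrial carrier for branched-chain amino acids and so the entry to Bcat2, had the highest mean FPKM of them, carried by HFD library 3, and Slc3a2 was above it in HFD library 2 and HTG libraries 1 and 2. Slc25a44 had 12.1, 12.8 and 24.7 FPKM in HFD libraries 1 to 3 and 7.83, 8.98 and 8.40 FPKM in HTG libraries 1 to 3. Each HTG library was below each HFD library, the reverse of the order seen for Bcat2. Its log2 fold change was -0.92 (95% interval -1.54 to -0.30), and those of the plasma membrane carriers were -0.94 (-1.74 to -0.14) for Slc7a5, -0.38 (-0.75 to -0.011) for its partner Slc3a2 and -0.53 (-0.98 to -0.072) for Slc43a2.

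Among 3 transcription factor genes known to act on branched-chain amino acid enzymes, 1 was higher and 1 lower by an unadjusted p under 0.05, against 12.3% and 12.4% of all genes tested, and 0 had an adjusted p under 0.05 in edgeR's quasi-likelihood test. Mlxipl, which encodes the carbohydrate-responsive factor ChREBP, a regulator of Bckdk and Ppm1k in rodent liver, had 58.9, 46.8 and 82.7 FPKM in HFD libraries 1 to 3 and 102, 196 and 148 FPKM in HTG libraries 1 to 3. Each HTG library was above each HFD library, while Bckdk and Ppm1k overlapped between the groups. The log2 fold changes were 1.29 (95% interval 0.62 to 1.96) for Mlxipl, -0.80 (-1.54 to -0.050) for Ppara and -0.42 (-0.86 to 0.027) for Klf15.

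Hepatocyte markers identified the tissue as liver, with Alb at a mean of 24535 FPKM. The 5 hepatocyte markers listed summed to 33365, 34110 and 38561 FPKM in HFD libraries 1 to 3 and to 28454, 30628 and 26067 FPKM in HTG libraries 1 to 3, lower in each HTG library, and 1 of the 5 was lower at an unadjusted p under 0.05, where 12.4% of all genes tested were lower and 12.3% higher. Macrophage and leukocyte markers, led by Lyz2 and with 2 of 9, Lyz2 and Adgre1, lower at that threshold, summed to 471, 279 and 412 FPKM with HFD and to 310, 293 and 180 FPKM with HTG. In this sum HFD library 2 was the lowest of its group, as it was for Bcat2, Dbt, Ivd, Mccc1 and Mccc2. Stellate and fibroblast markers, led by Dcn, had sums of 29.8, 18.3 and 28.4 FPKM with HFD and 24.6, 20.9 and 16.4 FPKM with HTG, and endothelial markers, led by Clec4g, 25.8, 9.34 and 20.8 FPKM with HFD and 27.1, 25.7 and 14.1 FPKM with HTG. HFD library 2 was the lowest of its group in both of these sums too, as in those of red cell and pancreas markers. Among the 11 stellate, fibroblast and endothelial genes, 1 was higher and 0 lower by an unadjusted p under 0.05. Cholangiocyte markers, led by Spp1, lay between 49.4 and 61.4 FPKM with HFD and between 33.2 and 66.4 FPKM with HTG, and 1 of the 5 was higher and 1 lower by an unadjusted p under 0.05. Red cell markers, with Hbb-bs highest by mean but below Hba-a1 in each HTG library, lay between 230 and 511 FPKM with HFD and between 272 and 613 FPKM with HTG, and proliferation markers, with Mki67 highest by mean but below Birc5 in 3 libraries, between 1.58 and 3.79 FPKM with HFD and between 1.40 and 2.09 FPKM with HTG, with 1 of 5 genes lower and 0 higher at that threshold in each of these lists. Of 5 skeletal muscle markers, a tissue rich in Bcat2, 4 were at 0 in all libraries and their sum was at most 0.030 FPKM. Adipocyte markers summed to 0 FPKM in each HFD library and to 0.39, 0.010 and 0.020 FPKM in HTG libraries 1 to 3, the first mostly from Cfd at 0.36 FPKM, which was 0 in the other 5 libraries. Pancreas markers, with Cela1 highest in all but HTG library 3, summed to between 2.64 and 4.54 FPKM. The part of cell composition in the values of the 10 genes was not tested.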

How the data were processed

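Liver libraries were grouped by their sample labels. The authors deposited estimated counts per gene, rounded to whole numbers and not scaled between libraries, and FPKM values with 2 decimals. HISAT2, StringTie, SAMtools and the build mRatBN7.2 are named in the submitters' processing notes, without versions, while the gene rows carry mouse Ensembl identifiers, so coordinates are printed as listed, with no build assigned. Libraries were described as poly(A) selected, strand-marked and paired-end, and the strand setting of the counting is not given in the sources used here.

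Estimated counts were tested with edgeR 4.0.16 in R 4.3.3 (TMM scaling, filterByExpr, glmQLFit and glmQLFTest, the group as the only term), and p-values were adjusted over the 18455 genes tested. Intervals are 95% intervals of that fit. The named genes are the 10 members, from each other pathway list up to 4 genes with the smallest unadjusted p and its most abundant gene, each marker list's most abundant gene, and the 5 genes most correlated with Bcat1 and with Bckdk (log2 CPM, prior count 2). Genes overlapping a member were named for their position. Pccb, Cps1, Ttr and Adgre1 were named after their values were seen. Members and lists were chosen with earlier results of these data known. Alternatives were DESeq2 1.42.0, other filters and scalings, counts divided by 4, limma 3.58.1 on log2(FPKM + 0.1) or log2(FPKM + 1) for genes with a mean of at least 1 FPKM, an adjusted p under 0.1, the replicate number as a block and each library left out. Scripts were tested on simulated counts. Pc, Tf, Cpa1 and Lep were not analysed here.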

Additional observations from a re-analysis of the deposited data

How the results depend on the processing

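The number of genes called over the whole table, 2 by edgeR's quasi-likelihood test, was 2173 with DESeq2, 162 with no filter, 684 with at least 10 counts in every library, 822 with counts divided by 4, 878 and 884 with limma on log2(FPKM + 0.1) and log2(FPKM + 1), 2001 at an adjusted p under 0.1, and from 0 to 653 with a library left out, the 653 without HTG library 1. Of the 10 breakdown genes, 2 were called with DESeq2, 1 at an adjusted p under 0.1 and 0 in the other fits. At an unadjusted p under 0.05, Bcat2 was higher in each of 15 alternative fits. The number lower was 0 with at least 10 counts in every library, with counts divided by 4 and with either limma fit, since Bcat1 was not among the genes tested there, and from 1 to 3 with a library left out, the 3 without HFD library 2. The share of all genes lower at that threshold was not counted in these fits, so the numbers are not read as a result about the breakdown genes. The median log2 fold change of the breakdown genes was 0.030 with at least 10 counts, 0.035 with counts divided by 4 and from -0.24 to -0.0055 with a library left out, the -0.24 without HTG library 1. The log2 difference in Mccc1 over Mccc2 was from -0.20 to 0.021 with a library left out, and positive without HFD library 3.

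The sign turned for Bckdk with DESeq2 (-0.0051), with DESeq2's size factors (-0.0035), with limma (-0.027 and -0.020) and without HFD library 1 (-0.040), HFD library 3 (-5.4e-05) or HTG library 1 (-0.11). It turned for Ivd without HFD library 2 (-0.049) or HTG library 1 (-0.058), with a range from -0.058 to 0.13 with a library left out, against -0.11 to 0.098 for Bckdk. The cause was not tested. The other 8 genes kept their sign in each fit that held them. The median of the list of later steps, Dld included, was -0.51, and that of glutamate-linked transfer -0.84, without HTG library 1, and they were -0.087 and -0.44 without HTG library 2.

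The titles number the libraries 1 to 3 in each group, and no source pairs them. Deviations from the group means correlated between same-numbered libraries at -0.078, -0.073 and 0.10. With the replicate block, 0 genes were called over the whole table and 0 of the breakdown genes were lower at an unadjusted p under 0.05, with an unadjusted p of 0.0897 for Bcat1. Bcat1 had at most 3 counts in HTG libraries 2 and 3, of which library 2 was the deepest and library 3 the shallowest of the 6.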
